A study of Mus musculus with 11 samples.

Results

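The genes described here are 36 components of the apoptosis machinery, followed in J-RGCs, a retinal ganglion cell (RGC) type, of Tbr1 KO and WT mice. They were taken by gene symbol from a list of known apoptosis genes, chosen with earlier results of these data known. All 36 were found among the 24421 genes of the count files. They fall into 4 pro-survival BCL2 proteins, 3 pore-forming relatives, 8 BH3-only proteins, 6 caspase and apoptosome genes, 4 inhibitors of apoptosis and their antagonist, 3 death receptor genes, p53 with its ubiquitin ligase, and 6 genes of the DLK-JNK stress pathway. The question was how strongly postnatal J-RGCs express this machinery and whether loss of Tbr1, a T-box transcription factor, shifts it.

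In mitochondrial apoptosis, BH3-only proteins are induced or activated by stress and neutralise pro-survival BCL2 proteins, which frees BAX and BAK to open the outer mitochondrial membrane. Released cytochrome c assembles APAF1 and caspase 9 into the apoptosome, and inhibitors of apoptosis such as XIAP hold caspases back until DIABLO displaces them. Many retinal ganglion cells die naturally in the first postnatal days in rodents, a loss that depends on BAX, and after axon injury the kinase DLK drives ganglion cell death through JNK.

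Libraries were made from pools of 100 sorted J-RGCs, all carrying a green fluorescent reporter from a J-RGC transgenic line, from retinas at postnatal day 4 to 5 on a mixed C57BL/6 and CD1 background. The WT group, the controls, had 5 libraries from 4 animals, with animals a, c and d giving libraries 1, 4 and 5 and animal b giving libraries 2 and 3. The Tbr1 KO group, the mutants, had 6 libraries from 4 animals, with animals a and b giving libraries 1 and 2 and libraries 3 and 4, and animals c and d giving libraries 5 and 6. Neither the extent of the Tbr1 deletion nor the cells that carried it is given. Pools of the same animal were summed, so each comparison set 4 animals against 4. In sorted pools, fewer contributing cells and less RNA per cell cannot be told apart.

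Reads counted over genes ranged from 8609845 to 34718693 per library, and 30 to 35 of the 36 apoptosis genes had at least 1 read in a library. Levels are given as CPM, counts scaled to library size with TMM factors, and levels of different genes are compared only as RPKM, which also divides by the length of the merged exons. Tbr1 itself was at 193, 155, 166 and 165 CPM in control animals a to d and at 133, 145, 94.2 and 106 CPM in mutant animals a to d. All mutants lay below all controls (log2 fold change -0.50 ± 0.15, SE, edgeR adjusted p = 0.369), and counts over a whole gene do not check a deletion of unknown extent. The ganglion cell markers Rbpms (764 to 1134 CPM) and Slc17a6 (572 to 732 CPM) were high in every animal. Pou4f2, another ganglion cell marker, was at 264 to 295 CPM in controls and at 124 to 200 CPM in mutants, without overlap. It belongs to a list of 14 ganglion cell markers, of which 0 were called by edgeR (smallest adjusted p = 0.068). An unadjusted edgeR p under 0.05 was reached by 6 of these (42.9%), against 7.09% of all tested genes. Lower in all mutants than in all controls were 2 of the 14 (14.3%), against 2.48% of all tested genes. Jam2, the adhesion molecule gene that gives J-RGCs their name, was at 452 to 619 CPM in controls and at 87.4 to 130 CPM in mutants, so this defining marker was low but present in the mutant pools. Summed photoreceptor markers reached 1400 CPM in mutant animal c against 79.5 to 405 CPM in the other 7 animals, with Pde6c and Opn1mw of the 17 markers at 0 in every library. Mutant animal a had the lowest sum, 79.5 CPM. By gene, edgeR put each of the 14 tested ones higher in mutants, by a median of 1.82 in log2, but called 0 (smallest adjusted p = 0.543). Only 1 of them (7.14%) did not overlap between genotypes, against 5.06% of all tested genes. The photoreceptor list mean in log2 CPM was -0.312 ± 2.05 in controls and 1.86 ± 2.18 in mutants (SD, exact permutation p = 0.171). Summed markers of Müller glia and progenitors (13 genes), amacrine cells (10 genes) and horizontal cells (6 genes, Lhx1 at 0) were higher in all mutants than in all controls, at 507 to 663 against 690 to 955 CPM, 262 to 291 against 310 to 336 CPM and 48.0 to 71.7 against 97.0 to 135 CPM. These sums rest on the abundant genes of each list. The mean log2 CPM over the amacrine list was 0.31 ± 1.40 in controls and -0.32 ± 1.079 in mutants (SD). For Müller glia and progenitors it was 3.11 ± 1.31 and 3.91 ± 0.745, and for horizontal cells -0.115 ± 1.22 and 0.848 ± 0.657. Exact permutation p-values of these means were 0.543, 0.343 and 0.257. Log2 fold changes were positive for 11 of 12 tested Müller glia and progenitor markers, 5 of 5 horizontal and 5 of 6 amacrine. EdgeR called 2 Müller glia and progenitor markers higher (smallest adjusted p = 0.0465), beside 0.086% of all tested genes. Of the 12 tested, 2 were higher and 1 was lower in all mutants (25.0%), against 5.06% of all tested genes. Higher in all mutants were also 2 of 5 horizontal markers (40.0%) and 1 of 6 amacrine markers (16.7%), against 2.58% of all tested genes. Summed bipolar cell markers were at 865 to 1210 CPM in controls and 750 to 995 CPM in mutants. This sum also rests on the abundant genes of the list. It shares Isl1 with the ganglion cell list and Otx2 with the photoreceptor list, so it is no measure of bipolar cells alone. The mean log2 CPM over the bipolar list went the other way, at 0.607 ± 1.26 and 1.41 ± 1.82 (SD, exact permutation p = 0.486). Of its 6 tested genes, edgeR estimated 5 as higher and 1 as lower in mutants (median 1.05 in log2), and called 0.

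In control J-RGCs, Bcl2l1 and Cycs were the most abundant of the 36 genes. Bcl2l1, which encodes the survival protein BCL-XL, led at 199 ± 49.1 RPKM (SD, n = 4), at percentile 98.6 of the 13426 tested genes with an annotated length. Cycs, cytochrome c, followed at 134 ± 10.3 RPKM, and the lowest control animal for Bcl2l1 lay above the highest for Cycs. Bax at 62.3 ± 14.9 RPKM and the BH3-only gene Bbc3, which encodes PUMA, at 59.6 ± 15.5 RPKM came next. Their ranges did not overlap with that of Cycs but overlapped with each other. From Bax downward, every gene overlapped with its next lower neighbour, so the order within the lower ranks is not resolved by 4 animals.

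The genes spread over the range of expression of tested genes. Besides Bcl2l1 and Cycs, 12 genes had a control mean of 10 to 100 RPKM, 13 lay between 1 and 10 RPKM and 9 lay under 1 RPKM. Among all tested genes with a length, 3.90% were at 100 RPKM or more, 28.6% at 10 to 100, 46.0% at 1 to 10 and 21.5% under 1. These shares leave out genes that failed the count filter, as did 4 of the 9 scarce apoptosis genes, so 5 of the 32 tested ones lay under 1 RPKM. The 9 scarce genes were the BH3-only genes Bcl2l11, Bik, Bmf and Pmaip1, the caspases Casp6 and Casp8, the receptors Fas and Tnfrsf1a, and Birc5.

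**Figure D1:**
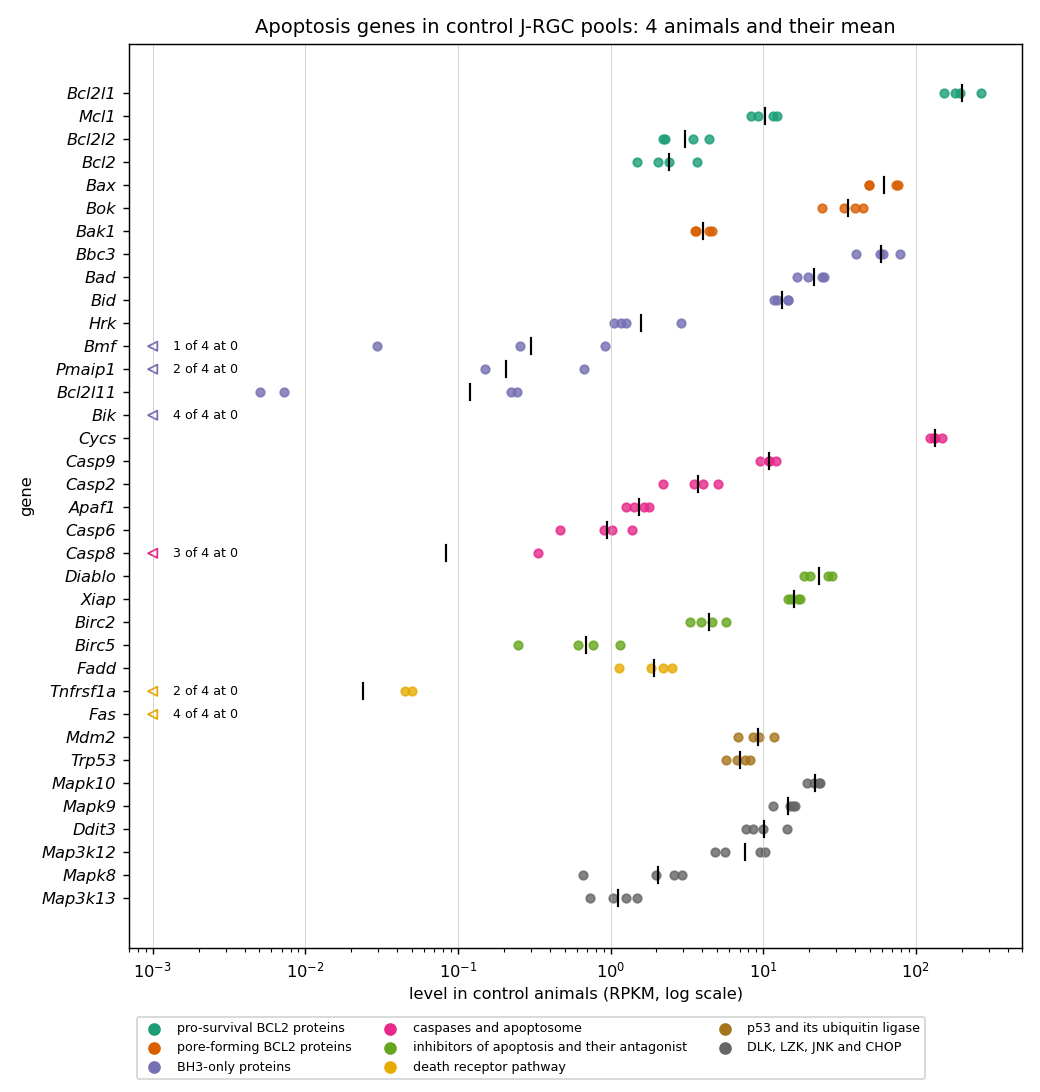
Level of each of the 36 apoptosis genes in control J-RGC pools, in RPKM on a log axis, with 1 point per control animal and a vertical bar at the mean of the 4 animals. Open triangles at the left edge mark animals with 0 counts. Bcl2l1 and Cycs stand at the right, at means of 199 and 134 RPKM, and Bik and Fas had no counts in any control animal.

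Against this background the mutants showed no called change in any of these genes. Of the 36 genes, 32 passed the filter on low counts and were tested, and 0 rose and 0 fell at a Benjamini-Hochberg adjusted p under 0.05 in the edgeR quasi-likelihood test over all 13957 tested genes. The same test called 0.287% of all tested genes, 0.086% as higher and 0.201% as lower in mutants, so a count of 0 among 32 is near the background. An unadjusted p under 0.05 was reached by 2 of the 32 tested genes (6.25%), against 7.09% of all tested genes. DESeq2 called 0 of 33 tested, with 1.65% of all genes called and a smallest adjusted p of its own of 0.147, for Bak1. The other alternatives called 0 of these genes too, beside 0.607% of all genes with each library as a sample, 0.535% with limma voom, 0.308% with the replicate block, 0.279% with RLE scaling, 0.301% with total count scaling, 0.218% without a filter, 0.245% without the shallowest pool and 0.119% to 0.304% without 1 animal. Log2 fold changes were positive for 18 and negative for 14 of the 32, with a median of 0.06, beside a median of -0.00071 and 49.9% positive over all tested genes.

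The intervals show which sizes of change these animals leave possible. Of the 26 genes with a mean of at least 10 CPM over all animals, 18 (69.2%) had a 95% interval of the log2 fold change inside a 2-fold change in either direction. Among all tested genes of that level the share was 77.7%. Intervals of the 5 tested scarce genes, those under 1 RPKM in controls, were far wider and took in a 2-fold change in either direction. The part of depth and pool size in this width was not tested.

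**Figure D2:**
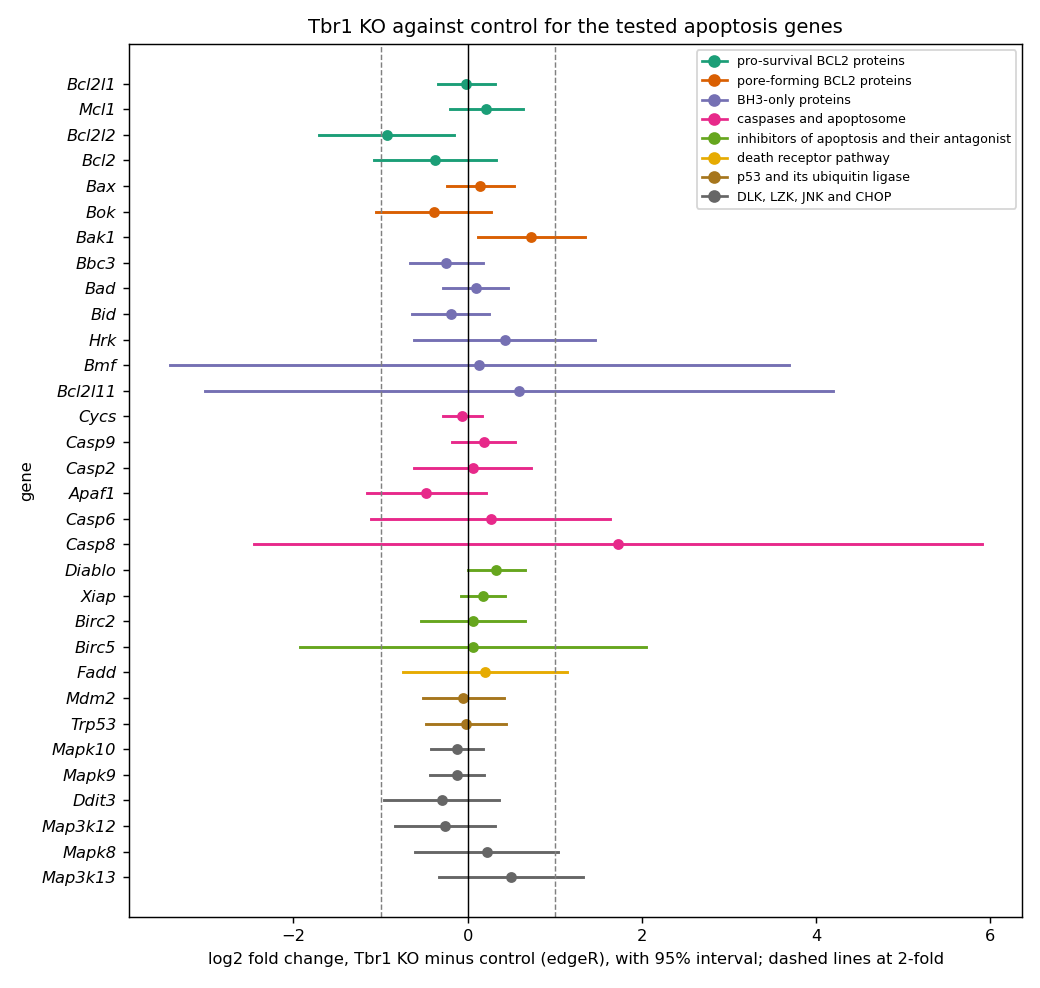
Log2 fold change of Tbr1 KO minus control from edgeR for the 32 tested apoptosis genes, grouped by role, with 95% intervals as horizontal lines and dashed lines at 2-fold. The intervals of Bak1 and Bcl2l2 are the only ones that lie wholly on one side of 0, and those of Casp8, Bcl2l11, Bmf and Birc5 are the widest.

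Among the 4 pro-survival genes, Bcl2l1 took 92.4% ± 1.23 of their summed RPKM in controls and 92.7% ± 0.557 in mutants (SD, 4 animals each). Bcl2l1 was at 1229, 828, 701 and 900 CPM in control animals a to d and at 913, 974, 913 and 819 CPM in mutants a to d. The mutants all fell within the control range, and control animal a alone stood high. The log2 fold change was -0.015 ± 0.15 (SE), with an interval of -0.34 to 0.31, and its sign was positive under several settings. The counts take in both splice forms of Bcl2l1, the long pro-survival form and the short form that promotes death, which cannot be separated in gene counts.

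Bcl2l2, which encodes BCL-W, a pro-survival protein of neurons, was lower in every mutant animal. It was at 19.7, 10.2, 9.87 and 15.4 CPM in control animals a to d and at 5.68, 7.79, 7.68 and 7.80 CPM in mutants a to d. The highest mutant stood below the lowest control, so the groups did not overlap. The log2 fold change was -0.93 ± 0.36 (SE) with an interval of -1.70 to -0.16, but the edgeR adjusted p over all genes was 0.573, so no fall was called. It ranged from 0.238 to 0.769 over the alternatives. The pools within an animal varied widely: mutant library 4 read 11.6 CPM, above control libraries 2, 3 and 4 at 10.2, 9.78 and 9.84 CPM, and mutant library 2 of animal a read 2.56 CPM. In GENCODE, 13.3% of the exon bases of Bcl2l2 are shared with a readthrough gene on the same strand, Gm20521.

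Mcl1 and Bcl2 showed no called change. Mcl1, a short-lived pro-survival protein, was at 28.4, 41.9, 31.5 and 39.7 CPM in controls and at 41.5, 40.9, 38.9 and 42.9 CPM in mutants, with control animals a and c below all mutants and b and d within the mutant range. Its interval was -0.20 to 0.63. Bcl2, the founding family member, was at 33.9, 18.7, 22.04 and 13.7 CPM in controls and at 20.0, 14.6, 21.0 and 12.5 CPM in mutants, and the groups overlapped. In controls Bcl2 stood at 2.41 ± 0.936 RPKM, far below Bcl2l1.

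The promoter windows of these genes were searched for the core letters of a T-box element, TCACACC, on both strands (GGTGTGA on the other). RefSeq promoter windows of GRCm38.p6 matched 34 of the 36 genes, with 48 windows in all. In the 250 bases before the gene start, the letters were found in 1 window, 1 of 3 listed for Bcl2l1, and in 3.33% of all 32851 windows. The stretch is shown because Bcl2l1 is the most abundant of the genes and held the one match, at chr2:152828612-152828640 on the minus strand, with the match in capitals starting 140 bases before that start site, which lies inside the gene.
Bcl2l1: gactgtatgtgGGTGTGAgtcctggccct
A match of letters is a description of this window and shows no binding, and Bcl2l1 had a log2 fold change of -0.015 as given above.

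Of the 3 pore-forming genes, Bak1 was higher in every mutant animal and Bax and Bok overlapped. Bak1, which encodes BAK, was at 10.6, 8.78, 8.57 and 11.1 CPM in control animals a to d and at 17.6, 17.3, 14.0 and 15.7 CPM in mutants a to d. Every mutant stood above every control, and this held for single pools too, with 5 control libraries at 7.57 to 11.02 CPM and 6 mutant libraries at 14.0 to 19.1 CPM. Among all 13829 genes tested by library, 1.77% had libraries that did not overlap and 0.889% had all mutant libraries above. The log2 fold change of Bak1 was 0.73 ± 0.28 (SE), from 9.75 ± 1.26 to 16.2 ± 1.65 CPM (SD, 4 animals each). Its interval was 0.12 to 1.34 and its edgeR adjusted p over all genes was 0.574, so no rise was called. Over the alternatives the adjusted p of Bak1 ranged from 0.147 with DESeq2 to 0.830 without mutant animal b.

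Bak1 and Bcl2l2 were the only 2 of the 32 tested genes (6.25%) whose animals did not overlap between genotypes, which was the case for 5.06% of all tested genes, with 2.58% higher and 2.48% lower in mutants. That share is close to the background, so 2 such genes in a list of this size are no result about apoptosis genes. Reads on Bak1 could be shared with Ggnbp1 on the opposite strand, which overlaps its exons in GENCODE. Ggnbp1 was at 2.82 ± 4.52 CPM in controls and 0.774 ± 0.423 CPM in mutants (SD, 4 animals each), with overlapping ranges. The summed Müller glia, amacrine and horizontal cell markers were higher in every mutant and Jam2 and Pou4f2 were lower in every mutant, as given above, and their part in the Bak1 and Bcl2l2 differences was not tested.

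Bax, the pore-forming protein on which natural ganglion cell death depends, was at 121, 116, 78.1 and 77.8 CPM in controls and at 104, 95.2, 112 and 124 CPM in mutants. Controls split into high animals a and b and low animals c and d, and the mutants covered the upper part of that range, with d just above it. The log2 fold change was 0.14 ± 0.18 (SE) with an interval of -0.24 to 0.53. Bok, a BAX relative found mainly at the endoplasmic reticulum, was at 44.4, 62.4, 83.1 and 73.6 CPM in controls and at 28.0, 38.1, 53.4 and 81.8 CPM in mutants. Mutant animals a and b lay below all controls while mutant d was close to the highest control, and the interval was -1.05 to 0.27. Within mutant animal a, library 1 read 20.6 and library 2 read 42.0 CPM for Bok.

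Per kilobase, Bax made up 60.5% ± 10.8 of the pore-forming signal in controls, Bok 35.5% ± 10.7 and Bak1 3.99% ± 0.704 (SD, n = 4). In mutants the same shares were 67.6% ± 5.70, 25.6% ± 7.19 and 6.75% ± 1.70. The ratio of summed pore-forming to summed pro-survival RPKM was 0.491 ± 0.104 in controls and 0.490 ± 0.126 in mutants (SD, 4 animals each). This ratio of opposing transcript classes ran from 0.370 to 0.590 in controls and from 0.388 to 0.666 in mutants, so the genotypes overlapped.

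**Figure D3:**
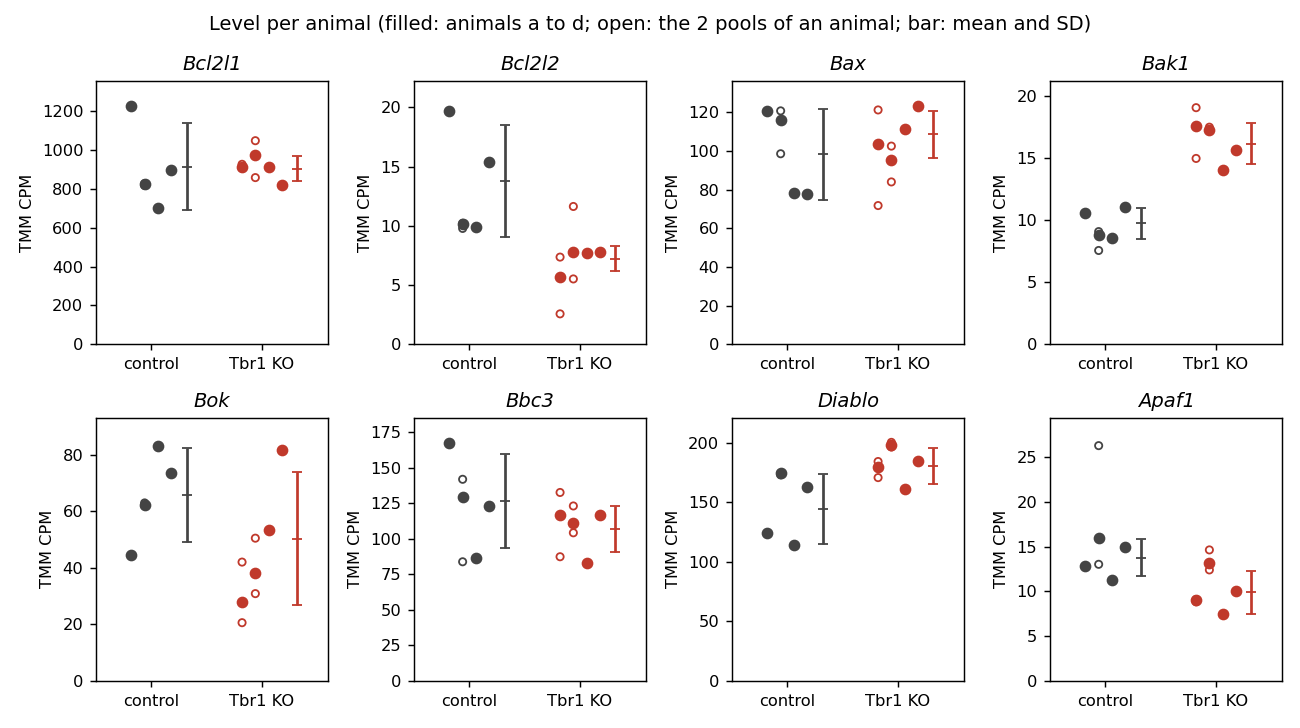
TMM-scaled CPM of 8 apoptosis genes in control and Tbr1 KO animals, with filled points for animals a to d from left to right, open points for the 2 pools of an animal where there are 2, and bars for the mean and SD of 4 animals. Bak1 and Bcl2l2 separate the genotypes by animal, at 9.75 against 16.2 and 13.8 against 7.24 CPM, while Bcl2l1, Bax, Bok, Bbc3, Diablo and Apaf1 overlap.

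Among the BH3-only genes, Bbc3 took 61.0% ± 7.28 of the summed RPKM in controls and 57.2% ± 4.00 in mutants (SD, 4 animals each). Bbc3, a p53 target that also responds to other stress, was at 167, 129, 86.7 and 123 CPM in controls and at 117, 111, 82.9 and 117 CPM in mutants. The groups overlapped and the interval was -0.66 to 0.17. Bid, which links death receptors to mitochondria, was at 51.9, 51.3, 41.9 and 43.9 CPM in controls and at 51.5, 45.2, 37.8 and 30.4 CPM in mutants, with mutants c and d below all controls. Its interval was -0.63 to 0.24. Bad, a BH3-only protein regulated by growth factor signals, averaged 54.7 ± 10.2 CPM in controls and 58.3 ± 2.09 CPM in mutants. On the opposite strand, Gpr137 overlaps 20.5% of the exon bases of Bad, and Bcl2l13 overlaps 17.7% of those of Bid. Gpr137 averaged 99.8 CPM in controls and 93.7 CPM in mutants, and Bcl2l13 averaged 23.7 and 25.1 CPM.

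Hrk, a BH3-only gene induced in neurons deprived of trophic support, varied more between animals than between genotypes. It was at 16.4, 5.98, 6.65 and 7.13 CPM in controls and at 14.2, 13.0, 4.33 and 16.8 CPM in mutants. Control animal a stood with 3 of the mutants and mutant animal c stood below all controls, and the interval was -0.62 to 1.46. The remaining BH3-only genes were scarce. Bcl2l11, which encodes BIM, was at 1.97 and 1.79 CPM in control animals b and d, at 5.22 CPM in mutant c and at no more than 0.512 CPM in the other 5 animals. Bmf was at 0 to 4.80 CPM and Pmaip1, which encodes NOXA, at 0 to 1.84 CPM over the 8 animals.

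Caspase and apoptosome genes overlapped between genotypes throughout. Cycs was at 449, 504, 419 and 453 CPM in controls and at 489, 441, 401 and 419 CPM in mutants, and its interval of -0.29 to 0.16 was the narrowest of the 32. Cycs has processed copies in the genome, so reads of the gene may be incompletely assigned. Apaf1, the apoptosome scaffold, was at 12.8, 16.03, 11.3 and 15.01 CPM in controls and at 9.0, 13.2, 7.50 and 9.999 CPM in mutants. Only mutant b reached the control range, and the interval was -1.16 to 0.21 with an edgeR adjusted p of 0.862.

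Casp9, the initiator caspase of the apoptosome, was at 57.1, 49.6, 57.2 and 63.5 CPM in controls and at 77.7, 66.2, 58.1 and 56.4 CPM in mutants. Mutants a and b were above all controls and c and d within the control range, with an interval of -0.18 to 0.54. In controls Casp9 stood at 10.9 ± 1.09 RPKM, above Apaf1 at 1.53 ± 0.235 RPKM. Casp2, an initiator caspase linked to DNA damage and stress, averaged 26.2 ± 8.49 CPM in controls and 27.3 ± 8.86 CPM in mutants. Casp6, an executioner caspase with a part in axon degeneration, was at 2.61 to 7.69 CPM in controls and 1.98 to 13.5 CPM in mutants. Casp8, the initiator caspase of death receptors, was counted in 1 control animal, at 0.973 CPM in d, and in mutants a, b and c at 1.002, 0.790 and 1.45 CPM.

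The 3 inhibitors of apoptosis and their antagonist had positive log2 fold changes with all animals, and none was called; those of Birc2 and Birc5 turned negative without some single animals. Diablo, whose product displaces XIAP from caspases, was at 124, 175, 114 and 163 CPM in controls and at 179, 198, 162 and 185 CPM in mutants. All mutants except c stood above all controls. The log2 fold change was 0.33 ± 0.15 (SE) with an interval of -0.0010 to 0.66 and an edgeR adjusted p of 0.707. B3gnt4 on the opposite strand overlaps 21.5% of the exon bases of Diablo and averaged 1.348 CPM in controls and 1.06 CPM in mutants. In GENCODE, 19.3% of the exon bases of Diablo are shared with Gm49027 on the same strand.

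Xiap, the direct caspase inhibitor, was at 160, 165, 144 and 138 CPM in controls and at 154, 184, 169 and 179 CPM in mutants, with mutant a inside the control range and the others above it. Its interval was -0.077 to 0.43. The ratio of Xiap to Diablo in RPKM was 0.706 ± 0.145 in controls and 0.619 ± 0.0508 in mutants (SD, 4 animals each), with overlapping ranges. Birc2, a ubiquitin ligase of the TNF receptor complex, was at 21.2, 17.97, 15.2 and 26.2 CPM in controls and at 19.5, 25.6, 15.03 and 24.01 CPM in mutants. Birc5, survivin, is best known from dividing cells and was at 0.847 to 3.92 CPM in controls and 0.490 to 4.53 CPM in mutants. The summed level of 10 cell cycle markers was 6.16 to 56.1 CPM in controls and 6.02 to 30.1 CPM in mutants. Their part in the Birc5 level was not tested.

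The receptor genes Fas and Tnfrsf1a had few or no counts in most J-RGC pools. Fas had 0 counts among 130810533 control gene reads, which allows up to 0.0231 CPM at 3 counts over the group, and 12 counts in mutant library 3 alone. Tnfrsf1a, the main TNF receptor, had 9 counts over the controls and 77 over the mutants, of which 76 came from mutant library 5. Fadd, the adaptor of these receptors, was expressed at 8.55, 7.17, 4.41 and 9.86 CPM in controls and at 13.6, 5.56, 7.26 and 7.96 CPM in mutants, overlapping between genotypes. Counting limits cover counting error only, since reads without molecular identifiers are not independent molecules.

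The scarce genes were counted in some pools and at 0 in others. Bik had 42 counts in mutant library 5 and 0 in the 10 other libraries, which allows up to 0.0231 CPM in controls. Casp8, Pmaip1 and Tnfrsf1a each had 0 counts in 7 of 11 libraries. Mutant animal c, made from library 5 alone, was the highest mutant for Casp6, Birc5, Bmf, Bcl2l11, Casp8, Pmaip1, Tnfrsf1a and Bik, a set noticed after the values were seen. This is the animal with summed photoreceptor markers of 1400 CPM, and their part in these levels was not tested. Summed microglia markers were at 32.9 CPM in that animal, within the range of 13.4 to 163 CPM over all 8 animals. Without mutant animal c the log2 fold change of Bcl2l11 went from 0.58 to -2.25, that of Bmf from 0.13 to -0.49, that of Birc5 from 0.060 to -0.41 and that of Casp6 from 0.26 to -0.42, none of them called.

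**Figure D4:**
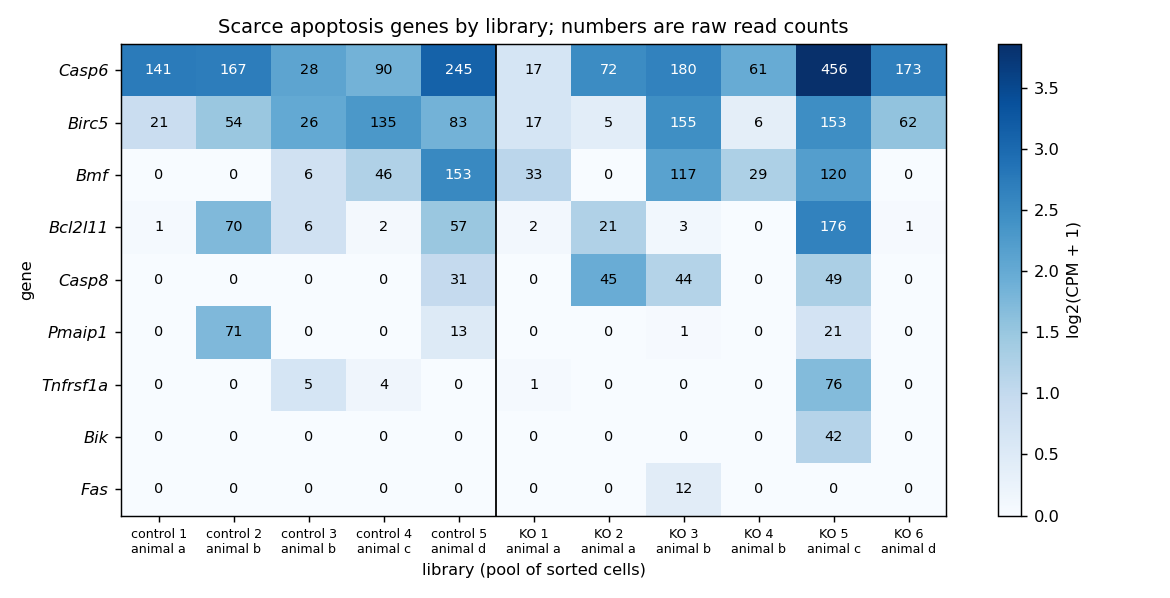
Raw read counts (numbers) and log2(CPM + 1) (shade) of 9 scarce apoptosis genes in each of the 11 libraries, control libraries left of the black line. Bik and Fas were counted in 1 library each, and KO library 5 of animal c holds 42 counts of Bik and 76 of Tnfrsf1a.

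Trp53, which encodes p53, and Mdm2, its ubiquitin ligase and target, were close in both genotypes. Trp53 was at 27.1, 30.7, 33.3 and 22.9 CPM in controls and at 28.9, 29.6, 24.4 and 29.4 CPM in mutants, all mutants inside the control range. Mdm2 was at 35.01, 43.9, 48.01 and 60.2 CPM in controls and at 45.9, 39.8, 56.8 and 38.3 CPM in mutants, again inside that range. The intervals were -0.48 to 0.44 for Trp53 and -0.51 to 0.41 for Mdm2, which leave out a 2-fold change in either direction.

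In the DLK-JNK pathway, Mapk10 was the most abundant kinase. It encodes JNK3, the JNK form enriched in neurons, and took 56.8% ± 3.85 of the summed JNK RPKM in controls and 55.8% ± 3.78 in mutants (SD, 4 animals each). Mapk9 (JNK2) followed with 37.9% ± 5.74 and 37.5% ± 3.13, and Mapk8 (JNK1) with 5.23% ± 2.44 and 6.71% ± 1.54. Mapk10 was at 217, 263, 257 and 239 CPM in controls and at 253, 221, 172 and 252 CPM in mutants, where mutant c alone fell below the controls, and its interval was -0.42 to 0.18. Mapk9 had an interval of -0.44 to 0.19 and Mapk8 one of -0.60 to 1.04.

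Map3k12, which encodes DLK, was at 50.2, 43.7, 85.5 and 92.3 CPM in controls and at 60.4, 73.1, 53.7 and 39.5 CPM in mutants. Control animals split into a low pair and a high pair that enclosed all mutants except d, and the interval was -0.84 to 0.31. Pcbp2 on the opposite strand overlaps 17.5% of the exon bases of Map3k12 and averaged 45.1 CPM in controls and 52.1 CPM in mutants. Map3k13, which encodes the related kinase LZK, was at 6.37, 13.0, 10.9 and 8.98 CPM in controls and at 10.4, 18.5, 8.003 and 18.5 CPM in mutants. Mutants b and d stood above all controls, and the interval was -0.33 to 1.32. The ratio of Map3k12 to Map3k13 in RPKM was 7.11 ± 2.80 in controls and 4.504 ± 1.97 in mutants, with overlapping ranges.

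Ddit3, which encodes the stress-induced transcription factor CHOP, was at 13.3, 24.4, 17.1 and 14.8 CPM in controls and at 13.9, 19.0, 11.9 and 11.7 CPM in mutants. The groups overlapped, with mutants c and d below all controls, and the interval was -0.96 to 0.36.

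Pools of the same animal show how far 2 libraries of 100 cells differ within an animal, which includes differences in depth. For the 26 apoptosis genes at a mean of 10 CPM or more, the median absolute log2 difference between the 2 pools was 0.562 in control animal b, 0.334 in mutant animal a and 0.285 in mutant animal b. The same medians over all 9192 tested genes of that level were 0.403, 0.309 and 0.281. The largest differences among these apoptosis genes were 2.00 for Map3k13 in mutant a, 1.27 for Mcl1 in mutant b and 1.27 for Trp53 in control b. Trp53 thus read 35.1 CPM in one pool of control b and 14.6 CPM in the other, a wider gap than between any 2 animals of the study. The pool with the lower value was the shallowest library, at 8609845 gene reads against 31033784, and held 125 counts of Trp53 against 1059. The part of depth in these differences was not tested.

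Other genes of the pathways, taken from 6 lists, gave no call either: 0 of 96 tested genes rose and 0 fell, and 5.21% had animals that did not overlap between genotypes, beside the 5.06% of all tested genes. Of 16 further BCL2 family and mitochondrial death genes, the mitophagy receptor Bnip3 was at 134 ± 37.7 CPM in controls and 188 ± 30.7 CPM in mutants (SD, 4 animals each), with a fitted log2 difference of 0.49 ± 0.20 (SE). Its relative Bnip3l had 0.21 ± 0.11 and the mitochondrial channel gene Vdac3 -0.18 ± 0.12. Of 10 further caspases, regulators and nucleases, the genes of the apoptotic nuclease and its inhibitor, Dffb and Dffa, had log2 fold changes of -0.68 ± 0.54 and -0.44 ± 0.24.

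Of 15 further death receptor and necroptosis genes, App, a proposed source of ligand for death receptor 6, was at 706 ± 100.0 CPM in controls and 559 ± 33.2 CPM in mutants (SD, 4 animals each), with a fitted log2 difference of -0.34 ± 0.11 (SE). Tnfrsf21, death receptor 6 itself, had 0.60 ± 0.34 and Traf2, a signalling adaptor, -0.47 ± 0.46. Of 20 p53 relatives and targets, the cell cycle inhibitor Cdkn1a was at 265 ± 35.6 CPM in controls and 335 ± 16.4 CPM in mutants, with all mutants above all controls and a log2 fold change of 0.34 ± 0.12. Sesn2, a stress-induced target, had -0.65 ± 0.29 and Trp53bp2, a p53-binding protein, -0.61 ± 0.34, so these p53 pathway genes did not share a sign. The edgeR adjusted p of these 6 genes ran from 0.472 to 0.936.

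Of 20 further DLK-JNK genes, Sarm1 had the smallest edgeR adjusted p of the 6 lists, 0.297. Sarm1 encodes the NAD-consuming enzyme that drives axon degeneration, and it was at 158 ± 23.4 CPM in controls and 107 ± 17.0 CPM in mutants (SD, 4 animals each), with all mutants below all controls and a log2 fold change of -0.55 ± 0.15 (SE). Jund and Fos, the AP-1 subunit genes of the list named by smallest p, had log2 fold changes of opposite sign, 0.36 ± 0.13 and -0.76 ± 0.33. For Jund all mutants lay above all controls, while Fos overlapped. Of 16 endoplasmic reticulum stress genes, which include Sesn2, the chaperone Dnajc3 had -0.64 ± 0.28 and the stress-induced Ddit4 -0.40 ± 0.25. Median log2 fold changes of the 6 lists ran from -0.13 for the p53 genes to 0.027 for the caspase list.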

How the data were processed

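RNA sequencing counts from 11 libraries of sorted J-RGC pools were used, 1 file per library. Each deposited file lists raw counts, whole numbers of reads for each gene symbol. The submitters' processing notes name the tools HTSeq 0.6.1, TopHat2 2.0.10 and Trimmomatic 0.32 and the build mm10 (GRCm38). The annotation and the strand option of the counting step were not given in the sources used here. Per the labels' protocols, libraries came from Smart-seq2 and Nextera XT, which do not mark strand. Where genes on opposite strands overlap, reads may therefore be included or left out, depending on the annotation and strand option. Lines naming no gene, 36.1% to 39.9% of the reads listed, were left out.

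The labels tie libraries to animals, so counts were summed per animal. Genes were filtered with filterByExpr, scaled by TMM and tested in edgeR 4.0.16 (R 4.3.3) with a robust quasi-likelihood fit and Benjamini-Hochberg adjustment over 13957 genes at 0.05. SE is the log2 fold change over the root of F, and 95% intervals use the fit's degrees of freedom. RPKM used merged exon lengths of GENCODE M21, which understate genes with many isoforms. DESeq2 1.42.0, limma 3.58.1 and matplotlib 3.10.9 were also used. On simulated 4 against 4 data with 13647 genes, calls were made for 43% of the 100 genes given a 2-fold difference, for 71% of the 100 given a 4-fold difference and for 2 genes given none. Differences were given only to genes above a minimum expected count, and the simulated spread followed the trend over expression level. These rates therefore do not apply to scarce genes or to genes with more spread than the trend. Within each role, members given per animal are the 3 with the smallest p and the most abundant in controls. From each other list, the 3 with the smallest p are named, except 1 gene that is not reported here. The members and lists were chosen with earlier results of these data known, and some values were added beyond that rule. The p-values from summed counts measure spread between animals, 4 per genotype unless 1 was left out, and edgeR also uses the spread of other genes. With each library as a sample and under the replicate block, pools of 1 animal count as separate samples.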

Additional observations from a re-analysis of the deposited data

Results flagged for a closer look

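Within a genotype, 9 of 70 gene and genotype groups held an animal that stood far from the other 3. A group counts when the gap to the nearest animal, relative to the group's whole range, exceeds Dixon's 95% critical value. Chance passes that value in about 5% of groups with a normal spread, which does not hold for genes counted in 1 animal only: Bik, Fas and Casp8 pass it by construction and Pmaip1 and Tnfrsf1a nearly so, and no excess is read from the 9. Mutant animal c was that animal in 5 of them, for Bcl2l11 at 5.22 CPM against 0.0313 to 0.512, Bik at 1.24 CPM against 0, Pmaip1 at 0.622 CPM against 0 to 0.0179, Tnfrsf1a at 2.25 CPM against 0 to 0.0223 and, on the low side, Trp53 at 24.4 CPM against 28.9 to 29.6. Mutant animal c also had the highest summed photoreceptor markers, and their part in these values was not tested. Mutant animal a was low for Bcl2l2, at 5.68 CPM against 7.68 to 7.80, and mutant animal b was alone in counting Fas, at 0.215 CPM. Control animal a was high for Hrk, at 16.4 CPM against 5.98 to 7.13, and control animal d was alone among controls in counting Casp8, at 0.973 CPM.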

How the results depend on the processing

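None of the apoptosis genes was called under any of the 16 alternatives, including 1 added after seeing the data, in which the shallowest pool was left out. Over all genes 40 were called, against 84 with each library as a sample, 74 with limma voom and the animal as random block, 262 with DESeq2 and 17 to 44 without 1 animal (18 without control b, 22, 17 and 25 without mutants a, b and d). The replicate block over libraries 1 to 5 takes single pools as samples and leaves out mutant library 6, which is all of mutant animal d. It called 42 genes and no apoptosis gene. Under it Bok had a log2 fold change of -0.77 against -0.39. Its edgeR adjusted p of 0.139 was the smallest of any apoptosis gene in any alternative. Without mutant animal d and with no block, the log2 fold change of Bok was -0.73. Correlations of deviations between libraries of the same number were low, from -0.029 to 0.14, and 3 of 5 control libraries matched their own number best. Whether the numbers pair the libraries was not tested. With libraries as samples, 1 apoptosis gene (Bak1) in place of 2 had groups that did not overlap.

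Of the 32 tested genes, 16 kept the sign of their log2 fold change throughout and 16 did not, all of these uncalled. With libraries as samples the changed values were Bcl2l1 0.031, Casp2 -0.054, Birc5 -0.26, Trp53 0.094 and Mdm2 0.0075. Under the replicate block they were Bcl2l1 0.082, Bax -0.0081, Bcl2l11 -0.70, Bid 0.036, Casp2 -0.19, Casp6 -0.24, Cycs 0.0042, Birc5 -0.97, Trp53 0.099, Mdm2 0.032 and Map3k12 0.00071. With limma voom they were Bcl2l1 0.053, Bcl2l11 -0.91, Casp2 -0.065, Casp6 -0.21 and Birc5 -0.57, and with total count scaling Bcl2l1 was 0.0026. Without 1 animal, Bcl2l1 ran from -0.12 to 0.17 (0.030 without mutant d), Bad from -0.0065 to 0.18, Bcl2l11 from -2.25 to 1.197, Casp2 from -0.17 to 0.25 (-0.12 without control a), Casp6 from -0.42 to 0.56, Fadd from -0.11 to 0.36 and Mapk8 from -0.068 to 0.44. Bmf ran from -0.49 to 1.79 (-0.28, -0.25 and -0.14 without controls a and b and mutant b), and Birc5 from -0.41 to 0.42 (-0.21 without control a, -0.025 without mutant b). Birc2 ran from -0.053 to 0.22 (-0.048 and -0.0087 without mutants b and d), Mdm2 from -0.17 to 0.0995 (0.0069 and 0.022 without mutants b and d) and Trp53 from -0.11 to 0.064 (0.017 without control b, 0.049 without mutant c). The cause was not tested. All libraries were pools of 100 cells, so the part of pool size was not tested either.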
